A study of Homo sapiens with 4 samples.

Results

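Hypoxia and glycolysis genes were followed with and without siRNA against hMOF in A549 and H1299, which are 2 human lines of non-small cell lung cancer. hMOF is the histone H4 acetyltransferase encoded by KAT8. The members were 38 genes named from the pathway, 18 that act in glycolysis and 20 others known as hypoxia genes. Each was represented by the probe set of a single gene with the highest mean signal of the 4 arrays. Of the 38 genes, 36 had such a probe set, out of 19775 genes on the array. All 36 also passed the minimum mean signal of 78.2, which 12825 genes passed. SLC16A3 and CA9 were not analysed here. The genes were named with earlier results of these data known, so counts and medians over them are descriptions and carry no test.

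The groups were A549 with hMOF siRNA, A549 with scramble siRNA, H1299 with hMOF siRNA and H1299 with scramble siRNA, with 1 array each. Both lines were kept in DMEM with 10% serum and transfected with Lipofectamine, and the labels name no low-oxygen treatment. A549 is an adenocarcinoma line with alveolar epithelial features, and H1299 comes from a lymph node metastasis. No label used here gives the sequence of a siRNA, when RNA was taken or whether cultures were pooled. The source name of each array set its group, and the treatment tag of 2 arrays names the other siRNA. KAT8 had a signal of 106 with hMOF siRNA and 402 with scramble in A549. In H1299 the signals were 61.8 with hMOF siRNA and 241 with scramble. These are 26.4% and 25.6% of scramble (log2 mean −1.62, SE 0.11; limma adjusted p = 0.0288), so the target was low on the arrays whose source names say hMOF siRNA. The epithelial cadherin gene CDH1 had signals of 7.61 and 8.04 in H1299, against 1562 and 1535 in A549. CDKN2A, known to be deleted in A549, had 1176 and 1317 in H1299 and 46.5 and 33.5 in A549.

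Glycolysis splits glucose to pyruvate, and lactate dehydrogenase turns pyruvate to lactate. When oxygen is scarce, HIF-1, a dimer of HIF1A and ARNT, escapes the prolyl hydroxylases of the EGLN family and binds the hypoxia response element in the promoters of glucose transporters, glycolytic enzymes and genes such as VEGFA, CA9 and NDRG1. Many cancer lines keep these genes active in ordinary culture as well. All values below are MAS5 signals as the authors deposited them, or log2 ratios of signal plus an offset of 29.06, which shrinks the ratios of dim genes. A ratio within a line compares 1 array with 1 array and has no error of its own, so the test over both lines (limma, with a term for the line) takes the 2 lines as the repeats. The spread behind its p values is how far the siRNA ratios of the 2 lines differ, evened out by limma over all genes. With 1 array per line and siRNA, spread between repeat cultures of a line was not measured. Signals of different genes come from different probes, so their order says nothing firm about RNA levels.

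**Figure D1:**
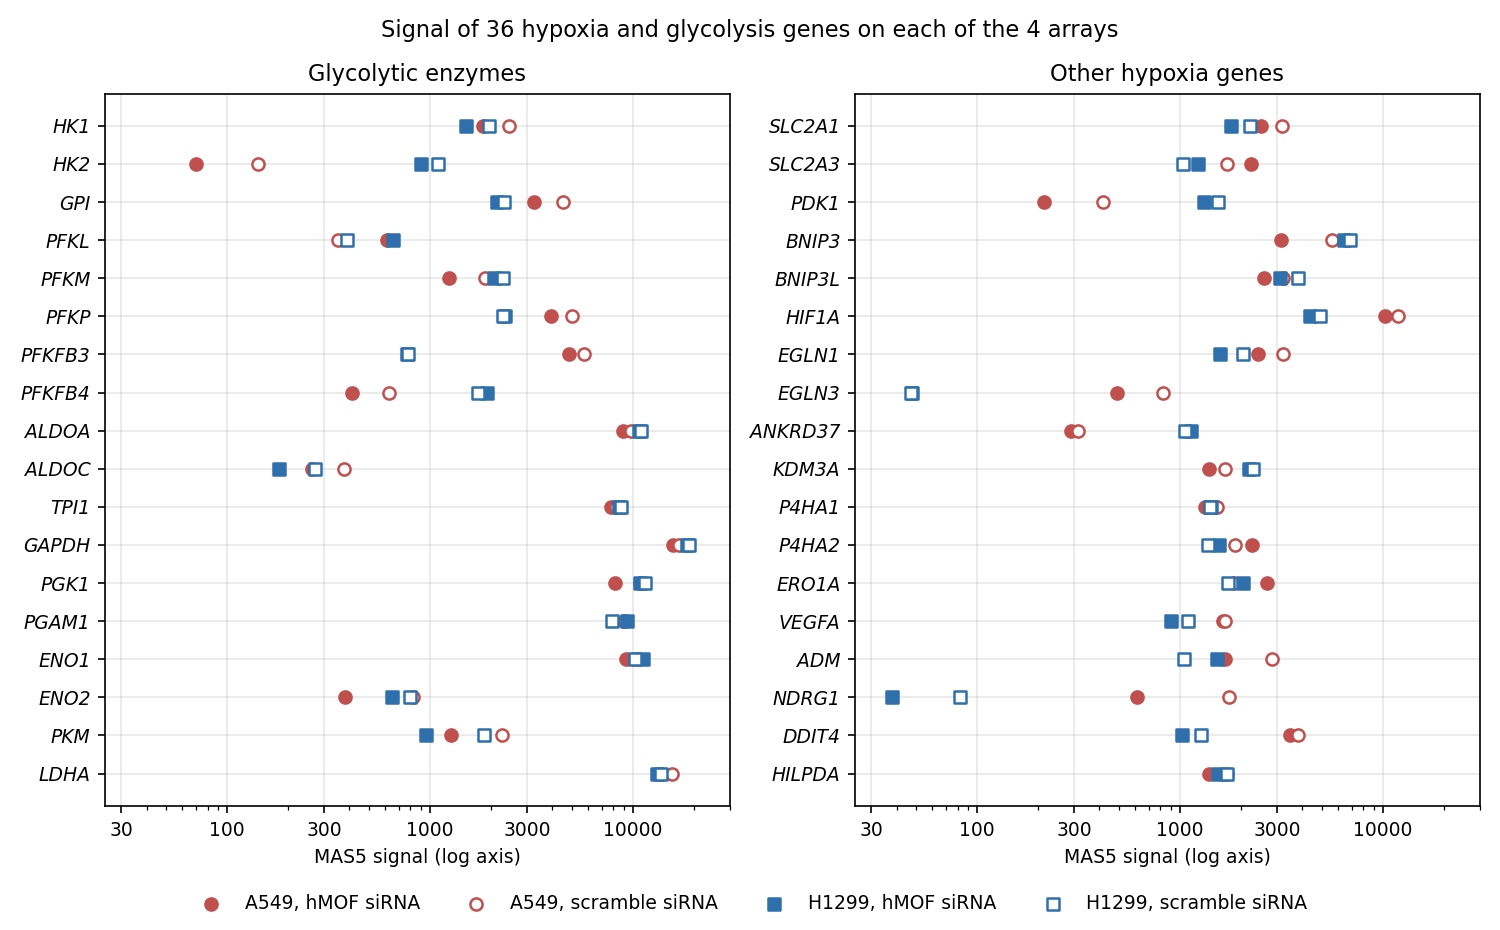
MAS5 signal on a log axis (x) for each of the 36 measured genes (rows) on each of the 4 arrays, with filled symbols for hMOF siRNA and open symbols for scramble siRNA. Many enzyme genes lie within a narrow range on all arrays, while HK2, PFKFB3, EGLN3 and NDRG1 separate the lines. EGLN3 and NDRG1 passed the signal minimum through A549 alone.

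The first comparison asked which members differed with hMOF siRNA. One member fell and 1 rose over both lines. PKM, the pyruvate kinase of most tissues and tumours, fell (limma adjusted p = 0.0347), and PFKL, the liver-type phosphofructokinase subunit, rose (limma adjusted p = 0.0448). The other 34 of 36 members did not pass the test. Of all 12825 genes, 3.57% were called, 2.41% lower and 1.16% higher, which is 309 and 149 genes, so 1 of 36 in each direction is close to the background. Lower calls were 67.5% of all calls, against 56.3% after quantile normalization and 54.8% with every array centred. At an unadjusted p under 0.05, 10 members were lower and 3 higher, against 14.6% and 9.15% of all genes. In bulk RNA, fewer cells with a transcript and less of it per cell cannot be told apart.

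PKM, by its brightest probe set, had a signal of 1270.0 with hMOF siRNA and 2263 with scramble in A549. In H1299 it had 955 with hMOF siRNA and 1852 with scramble. The siRNA arrays were thus the low ones in both lines, at 56.1% and 51.5% of scramble. The log2 ratios were −0.82 and −0.94 (mean −0.88 ± 0.08, SD, n = 2 lines). The gene's other probe set past the minimum did not share this fall. It had 459 with hMOF siRNA and 499.8 with scramble in A549, and 509 and 449.9 in H1299, which gives log2 ratios of −0.12 and 0.17. When both probe sets were averaged, the mean log2 change of PKM was −0.43 and did not pass (limma adjusted p = 0.0870, the highest of 10 alternatives that kept the line term; the lowest was 0.0214).

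PFKL, by a brightest probe set with the suffix _x_at, had 614 with hMOF siRNA and 353 with scramble in A549. Its H1299 signals were 654 with hMOF siRNA and 388 with scramble. The siRNA arrays were the high ones in both lines, and the log2 ratios were 0.75 and 0.71 (mean 0.73 ± 0.03, SD, n = 2 lines). Its second probe set, with the suffix _s_at, had 232 and 148 in A549 and 262 and 168 in H1299. That is a log2 ratio of 0.56 in each line, in the same direction. Probes under that _x_at suffix may also bind further transcripts. With such probe sets left out PFKL no longer passed (limma adjusted p = 0.0607, against 0.0226 as the lowest of 10 alternatives).

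The promoters of these genes are shown because they were the members called in each direction. The windows run from 250 bases before to 50 bases after the annotated start (RefSeq, GRCh38.p14), in the direction of transcription. Capitals mark ACGTG or GCGTG on either strand, the core letters of the hypoxia response element. PKM lies at chr15:72231141-72231440 on the minus strand, and PFKL at chr21:44299803-44300102 on the plus strand.
PKM: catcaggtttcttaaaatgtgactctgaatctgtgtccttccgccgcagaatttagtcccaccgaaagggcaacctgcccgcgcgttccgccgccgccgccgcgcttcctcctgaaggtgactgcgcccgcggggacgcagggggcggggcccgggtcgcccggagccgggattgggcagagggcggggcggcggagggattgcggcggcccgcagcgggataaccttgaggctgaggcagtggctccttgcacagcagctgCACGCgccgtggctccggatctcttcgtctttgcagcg
PFKL: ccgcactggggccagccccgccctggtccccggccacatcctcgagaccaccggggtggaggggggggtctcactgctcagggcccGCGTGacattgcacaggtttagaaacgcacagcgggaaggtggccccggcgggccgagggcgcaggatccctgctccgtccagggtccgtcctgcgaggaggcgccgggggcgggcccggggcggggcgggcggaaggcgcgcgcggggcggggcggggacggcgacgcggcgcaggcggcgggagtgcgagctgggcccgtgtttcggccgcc
PKM held 1 match, whose first base was base 13 of the transcript, and PFKL held 1 match, upstream of the start. Such matches were common. Windows were on file for 33 of the 38 members, 61 windows in all, and 41 (67.2%) held a match, against 59.7% of the 15176 windows of genes past the signal minimum and 48.4% of all 35116 windows. The median GC content of the windows was 69.0%, 64.7% and 58.7% in the same order. PGAM1, EGLN3 and P4HA2 had no match in these windows.

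Most members lay below 0 in A549 without passing the test. Of the 18 genes of glycolysis, 17 were below 0 in A549 and 13 in H1299, against 53.6% and 51.5% of all genes. Of the 18 other hypoxia genes measured, 15 and 11 were below 0. Median log2 ratios were −0.37 in A549 and −0.05 in H1299 for the glycolysis genes and −0.27 and −0.12 for the other hypoxia genes. The medians of all genes were −0.02 and −0.01. With each array centred on its median, the H1299 median of the glycolysis genes was 0.01. The median of the probe sets' mean signals was 1906 for the members and 386 for all genes. Among the 3102 genes with a mean signal of at least 1000, 59.0% were below 0 in A549 and 50.6% in H1299, against 25 and 19 of the 28 members that bright. The 3'/5' signal ratio of the ACTB control probe sets, a sign of RNA quality, was 2.78 with hMOF siRNA and 3.11 with scramble in A549, and 2.64 and 2.89 in H1299. The GAPDH controls gave 1.197 with hMOF siRNA and 1.176 with scramble in A549. In H1299 they gave 1.09 and 1.10. Their part in the result was not tested.

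**Figure D2:**
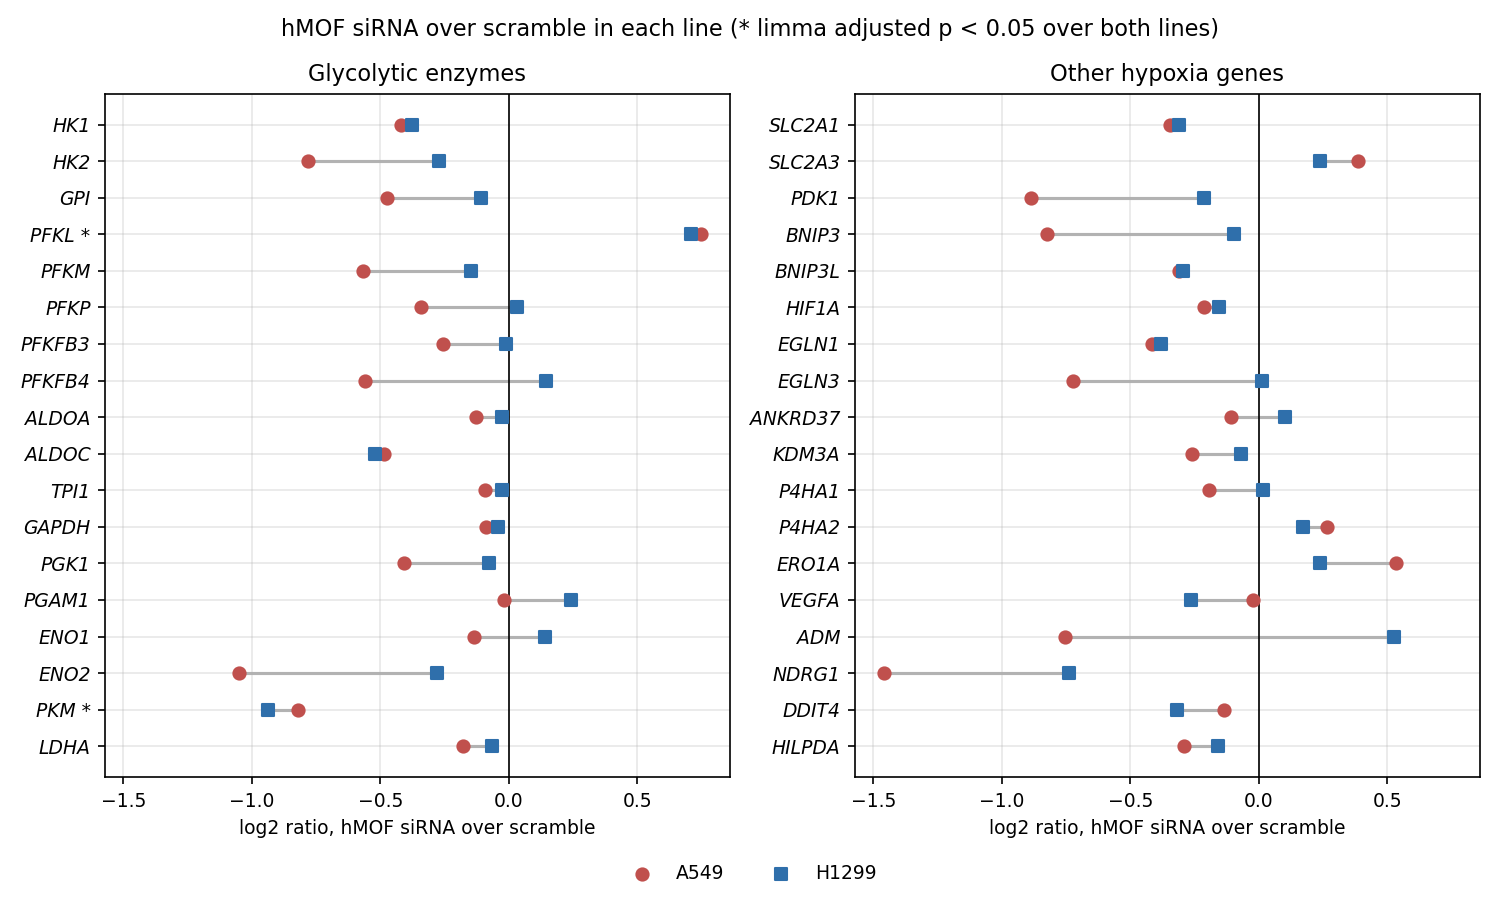
log2 ratio of hMOF siRNA to scramble (x) for each member (rows) in A549 (circles) and H1299 (squares), with a grey line joining the lines and an asterisk where limma's adjusted p over both lines was under 0.05. PKM lies left of 0 and PFKL right of 0 in both lines, and many grey lines run from a lower A549 value to an H1299 value near 0.

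At the entry of glycolysis, both hexokinase genes had lower signals with hMOF siRNA in each line. HK1, the widely expressed hexokinase, had 1817 with hMOF siRNA and 2438 with scramble in A549, and 1503 and 1959 in H1299 (log2 −0.42 and −0.38; limma adjusted p = 0.114). HK2, the inducible hexokinase of tumours and muscle, had 70.4 and 142 in A549 and 904 and 1097 in H1299 (log2 −0.78 and −0.27; limma adjusted p = 0.139). Neither passed, although all hMOF siRNA values lay under the scramble values of the same line. The second HK2 probe set past the minimum had its larger ratio in H1299 instead, at −0.20 in A549 and −1.09 in H1299. Its A549 signals of 21.3 and 28.9 lie below the offset. GPI, the isomerase of the next step, had 3256 with hMOF siRNA and 4526 with scramble in A549, and 2143 and 2313 in H1299.

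Of the phosphofructokinase subunits, PFKL rose and the others did not pass. The muscle-type subunit gene PFKM had 1244 with hMOF siRNA and 1857 with scramble in A549, and 2066 and 2291 in H1299 (log2 −0.57 and −0.15; limma adjusted p = 0.228). The platelet-type PFKP had 3941 and 4996 in A549 and 2333 and 2281 in H1299 (log2 −0.34 and 0.03). PFKFB3 and PFKFB4 make and break the fructose bisphosphate that activates phosphofructokinase. PFKFB3 stood at log2 −0.26 in A549 and −0.01 in H1299. PFKFB4 had 414 with hMOF siRNA and 624 with scramble in A549, but 1907 and 1723 in H1299, on the other side of 0.

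No enzyme gene of the lower pathway other than PKM passed the test. GAPDH, the dehydrogenase often used as a loading control, had 15832 with hMOF siRNA and 16824 with scramble in A549, and 18407 and 18931 in H1299 (log2 −0.09 and −0.04). The aldolase gene ALDOA, the triose isomerase gene TPI1 and the lactate dehydrogenase gene LDHA had log2 ratios from −0.18 to −0.02 over both lines. The enolase gene ENO1 stood at −0.13 in A549 and 0.14 in H1299, and the mutase gene PGAM1 at −0.02 and 0.24. PGK1, which makes the first ATP of the pathway, stood further from 0 in A549. It had 8175 with hMOF siRNA and 10855 with scramble in A549, and 10862 and 11451 in H1299 (log2 −0.41 and −0.08; limma adjusted p = 0.340). Each of its 6 probe sets past the minimum had a mean below 0, from −0.76 to −0.17.

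ENO2 and ALDOC, isozymes known from brain, also did not pass. ENO2, the neuronal enolase also induced by hypoxia, had 382 with hMOF siRNA and 822 with scramble in A549, and 649 and 792 in H1299. Its A549 array with hMOF siRNA was thus the lowest of the 4, and the log2 ratios were −1.05 and −0.28 (mean −0.66 ± 0.55, SD, n = 2 lines; limma adjusted p = 0.148). ALDOC, the brain-type aldolase, had 261 and 377 in A549 and 180.1 and 271 in H1299. Its log2 ratios of −0.48 and −0.52 lay close together, and it missed the threshold (limma adjusted p = 0.0772, and 0.0633 to 0.0967 over 10 alternatives).

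Among the other hypoxia genes, 0 of 18 passed limma's test, which called 3.57% of all genes. At an unadjusted p under 0.05, 5 were lower and 2 higher, against 14.6% and 9.15% of all genes. NDRG1, a stress-responsive gene with strong HIF dependence, came closest. It had 612 with hMOF siRNA and 1735 with scramble in A549, and 37.9 and 82.5 in H1299. In A549 the siRNA array kept 35.3% of the scramble signal, and the H1299 signals lie near the offset. The log2 ratios were −1.46 and −0.74 (mean −1.10 ± 0.51, SD, n = 2 lines; limma adjusted p = 0.0599). Over 10 alternatives with the line term its adjusted p ran from 0.0301 to 0.0838 and passed in 5, so its call depends on the processing.

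By log2 ratios with the offset, NDRG1 and ENO2 were the 2 members at least 2-fold lower in A549, where 1.14% of all genes were. By its brightest probe set and on the same scale, no member was 2-fold lower in H1299, against 2.21% of all genes. None was 2-fold higher in A549 or in H1299, against 0.717% and 1.22%. By signal without the offset, HK2 in A549 (49.7% of scramble) and NDRG1 in H1299 (45.9%) were also over 2-fold lower. The second HK2 probe set, at −1.09 in H1299, was over 2-fold lower there.

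The glucose transporter genes had ratios on opposite sides of 0 and did not pass. SLC2A1, which encodes the basal glucose transporter GLUT1, had 2491 with hMOF siRNA and 3176 with scramble in A549, and 1785 and 2218 in H1299 (log2 −0.35 and −0.31; limma adjusted p = 0.160). SLC2A3, which encodes the high-affinity transporter GLUT3, had 2239 and 1704 in A549 and 1228 and 1038 in H1299 (log2 0.39 and 0.24; limma adjusted p = 0.189). However, 1 of the 3 SLC2A3 probe sets, an _x_at one, stood at −0.29 in H1299.

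Of the genes that act at the mitochondrion, none passed, and PDK1 and BNIP3 had their larger ratios in A549. PDK1, the kinase that shuts off pyruvate dehydrogenase, had 212 with hMOF siRNA and 417 with scramble in A549, and 1319 and 1532 in H1299 (log2 −0.89 and −0.21; limma adjusted p = 0.174). BNIP3, a receptor for removing mitochondria, had 3159.5 and 5619 in A549 and 6458 and 6895 in H1299 (log2 −0.82 and −0.09; limma adjusted p = 0.252). The other PDK1 probe sets past the minimum stood at −0.27 and 0.31 and at −0.35 and −0.30. With probe sets averaged, the mean of PDK1 was −0.28, against −0.55 for its brightest probe set. The second BNIP3 probe set gave −0.75 and −0.06. Its relative BNIP3L stood at −0.31 and −0.30, with the lines close together. The difference between the lines could not be tested with 1 pair of arrays per line.

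None of the oxygen-sensing genes passed the test. HIF1A, the oxygen-regulated subunit of HIF-1, had 10252 with hMOF siRNA and 11887 with scramble in A549, and 4388 and 4883 in H1299 (log2 −0.21 and −0.15; limma adjusted p = 0.377). EGLN1, the main prolyl hydroxylase that marks HIF1A for destruction, had 2409 and 3222 in A549 and 1572 and 2053 in H1299 (log2 −0.42 and −0.38; limma adjusted p = 0.114). Of its other probe sets past the minimum, both had means above 0, at 0.07 and 0.19. EGLN3, the most hypoxia-inducible hydroxylase of the family, had 486 with hMOF siRNA and 822 with scramble in A549, while its H1299 signals of 47.7 and 47.0 lie near the offset. Its log2 ratios were −0.72 and 0.01 (limma adjusted p = 0.359). The ankyrin repeat gene ANKRD37 stood at −0.11 and 0.10, and the histone demethylase gene KDM3A at −0.26 and −0.07.

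No gene of collagen hydroxylation or disulfide formation passed the test. ERO1A, the oxidase that drives disulfide bonds in the endoplasmic reticulum, had 2668 with hMOF siRNA and 1836 with scramble in A549, and 2039 and 1723 in H1299 (log2 0.53 and 0.24; limma adjusted p = 0.160). All 3 of its probe sets had means above 0, from 0.39 to 0.62. The collagen prolyl hydroxylase gene P4HA2 stood at 0.27 and 0.17, while its second probe set past the minimum had a mean of −0.10. P4HA1 stood at −0.19 and 0.02. With PFKL and SLC2A3, ERO1A and P4HA2 made up the 4 members above 0 in both lines, against 31.6% of all genes. Below 0 in both lines were 24 of 36 members, against 36.7% of all genes.

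The remaining hypoxia targets held small ratios, except in ADM. VEGFA, the angiogenic growth factor, stood at −0.02 in A549 and −0.26 in H1299, the mTORC1 inhibitor gene DDIT4 at −0.14 and −0.32, and the lipid droplet gene HILPDA at −0.29 and −0.16. ADM, a vasodilator peptide, had 1671 with hMOF siRNA and 2838 with scramble in A549, but 1523 and 1048 in H1299. Its hMOF siRNA arrays were thus the lower one in A549 and the higher one in H1299, with log2 ratios of −0.75 and 0.53. They lay at the 3.06th and 93.8th percentiles of all genes.

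**Figure D3:**
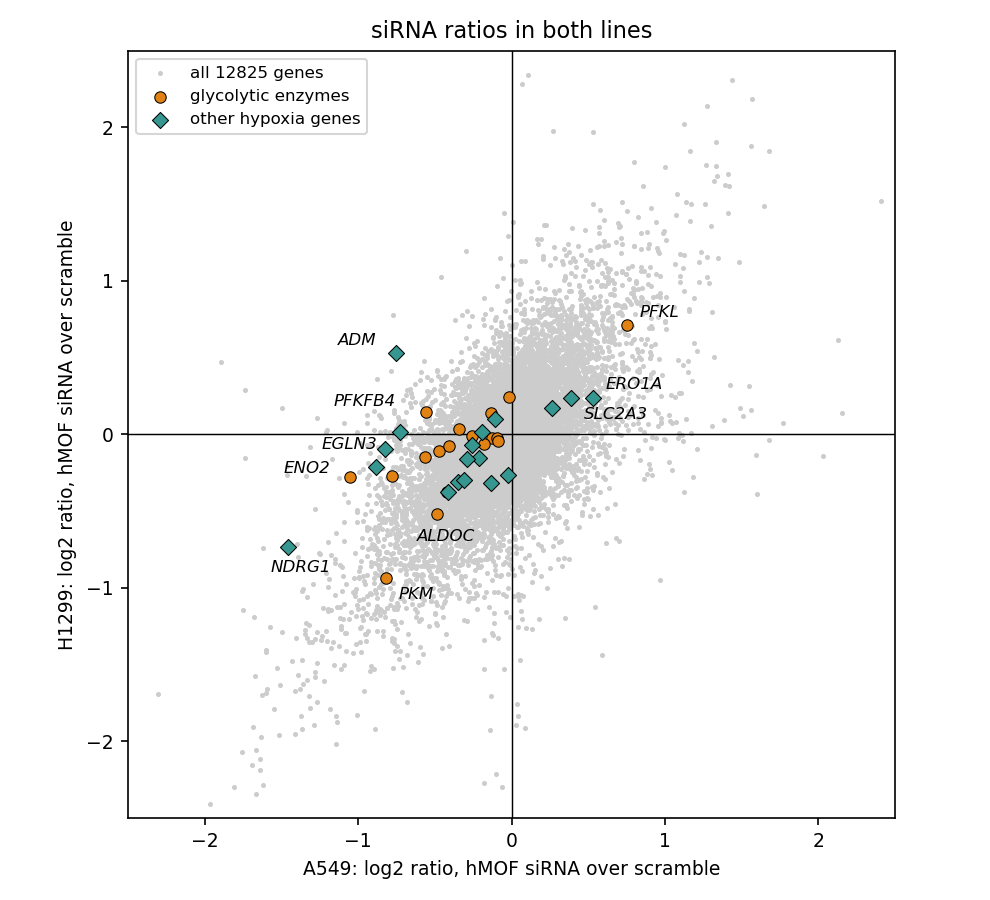
log2 ratio of hMOF siRNA to scramble in A549 (x) and H1299 (y) for all 12825 genes (grey; 9 lie outside the axes), the glycolysis genes (circles) and the other hypoxia genes (diamonds). Most members lie left of 0 in A549, PKM and PFKL sit at opposite ends, and ADM lies left of 0 and above 0.

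The ratio was lower in A549 than in H1299 for 28 of 36 members, against 53.1% of all genes, and the median difference, H1299 minus A549, was 0.16 against 0.02 over all genes. Ratios of the lines lay on opposite sides of 0 in 8 members, against 31.7% of all genes. All 8 were below 0 in A549, a pattern that 16.9% of all genes had. These differences were not tested.

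**Figure D4:**
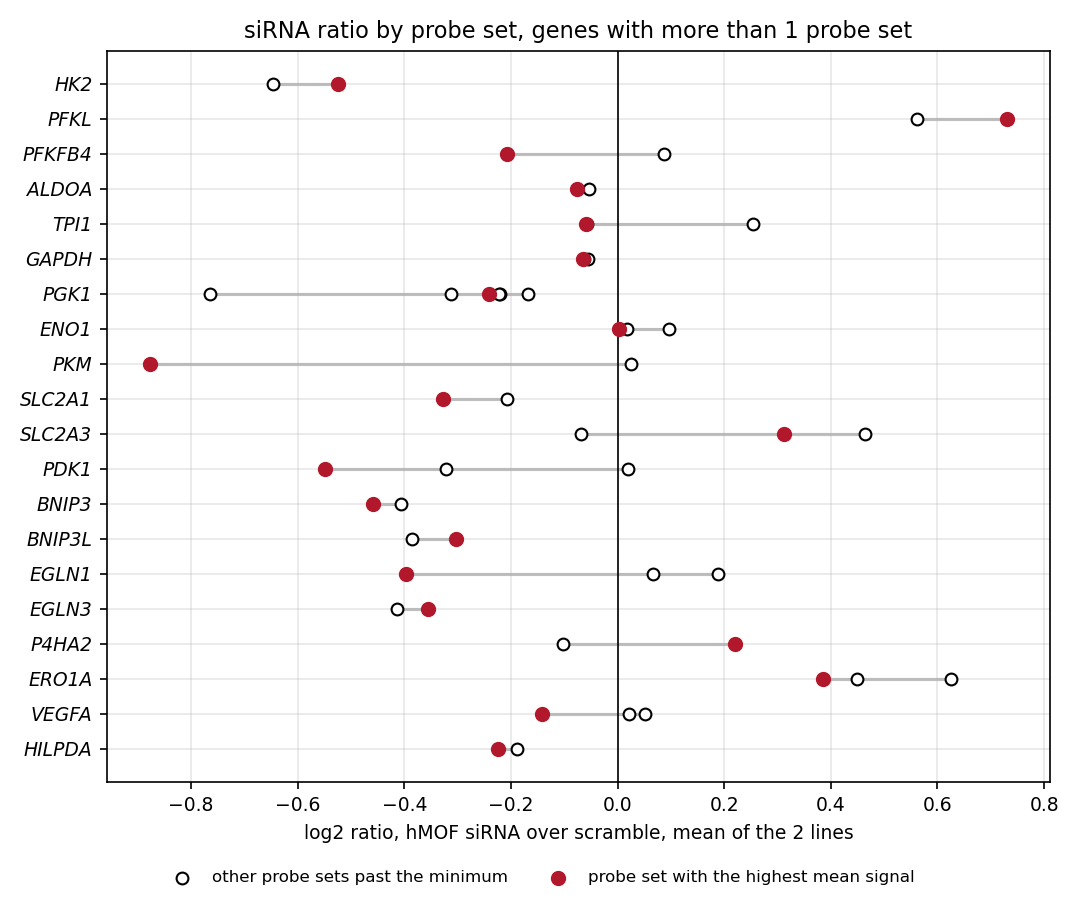
Mean log2 ratio of hMOF siRNA to scramble over both lines (x) for every probe set past the signal minimum of the 20 members with more than 1 (rows), with the probe set of highest mean signal filled. The probe sets of 12 genes lie on 1 side of 0, and those of 8, among them PKM, EGLN1 and SLC2A3, lie on both.

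Probe sets of a gene did not always give the same ratio. Of the 20 members with more than 1 probe set past the minimum, 12 had all means on 1 side of 0 and 8 had means on both sides. The 8 were PFKFB4, TPI1, PKM, SLC2A3, PDK1, EGLN1, P4HA2 and VEGFA. The widest gap belonged to PKM, from −0.88 to 0.03, and the narrowest to GAPDH, whose 3 probe sets lay between −0.06 and −0.05.

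Other genes of the same pathways, listed with earlier results of these data known, were counted as well. Of 28 further genes of glycolysis, pyruvate and glycogen metabolism, 22 were measured. Of these 1 fell, 0 rose and 21 missed the threshold of limma's test, with 6 lower and 1 higher at an unadjusted p under 0.05. The gene that fell was GBE1, the glycogen branching enzyme. It had 1469 with hMOF siRNA and 3939.7 with scramble in A549, and 1246 and 3174 in H1299, over 2-fold lower in each line (log2 −1.41 and −1.33, SE 0.11; limma adjusted p = 0.0288). The gene higher at an unadjusted p under 0.05 was the glycogen synthase gene GYS1, at 0.45 and 0.46, named after its values were seen. Of the genes in this list that missed the threshold, MPC1 came closest, with log2 ratios of −0.73 in A549 and −1.41 in H1299 (limma adjusted p = 0.0589). MPC1 was also named after its values were seen. In this list 18 of 22 genes were below 0 in A549 and 14 in H1299. Of all genes, 2.41% were called lower, 14.6% were lower and 9.15% higher without adjustment, and 53.6% and 51.5% were below 0 in A549 and in H1299.

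Of 28 further HIF-inducible genes, 24 were measured. Of these 2 fell, 0 rose and 22 missed the threshold of limma's test, with 10 lower and 0 higher at an unadjusted p under 0.05. Of all genes, 2.41% were called lower and 1.16% higher, and 14.6% were lower and 9.15% higher without adjustment. STC2, a secreted glycoprotein of calcium and phosphate handling, had 306 with hMOF siRNA and 714 with scramble in A549, and 190.5 and 357 in H1299 (log2 −1.15 and −0.81; limma adjusted p = 0.0389). The receptor tyrosine kinase gene MET had 2482 and 4787 in A549 and 1085 and 1899 in H1299 (log2 −0.94 and −0.79; limma adjusted p = 0.0367). Both were lower on the hMOF siRNA array in each line, and neither passed when a gene's probe sets were averaged (limma adjusted p = 0.0696 and 0.0641; the lowest of 10 alternatives were 0.0216 and 0.0214). In this list 21 of 24 genes were below 0 in A549 and 17 in H1299, against 53.6% and 51.5% of all genes. Of 14 genes of the HIF machinery, 12 were measured and 0 passed limma's test, with 1 lower and 1 higher at an unadjusted p under 0.05. These were CITED2, which competes with HIF for its coactivator, at −0.35 and −0.40, and VHL, the ubiquitin ligase subunit that recognises hydroxylated HIF, at 0.55 and 0.35. Both were named after their values were seen. Of the machinery genes 5 of 12 were below 0 in A549 and 6 in H1299, with medians of 0.05 and −0.00.

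The second comparison set H1299 against A549, with the siRNAs as the only repeats. Of 36 members, 7 were higher in H1299, 13 were higher in A549 and 16 did not pass limma's test. Of all genes 52.4% were called, 25.1% higher in H1299 and 27.3% higher in A549, so the members' share is close to the background. The glycolysis genes held 3 and 4 of these calls among 18, and the other hypoxia genes 4 and 9 among 18. At least 2-fold higher in H1299 with both siRNAs were 4 members, against 7.27% of all genes, and 5 were 2-fold higher in A549, against 9.86%. Among the 5 were NDRG1 and EGLN3, which passed the signal minimum through A549 alone. Each pair of signals below is of the hMOF siRNA array and the scramble array of that line.

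The regulatory isozymes differed between the lines in opposite directions. HK2 had 904 and 1097 in H1299, against 70.4 and 142 in A549. By signal without the offset, that is 12.8-fold higher in H1299 with hMOF siRNA and 7.74-fold with scramble. With the offset, the log2 mean was 2.98 (SE 0.16, limma adjusted p = 0.000278). HK1 had 1503 and 1959 in H1299 and 1817 and 2438 in A549, where the groups overlap, and did not pass (log2 mean −0.29; limma adjusted p = 0.0773). PFKFB3 had 773 and 779.5 in H1299, against 4812 and 5749 in A549 (log2 mean −2.72, SE 0.12; limma adjusted p = 0.000168). PFKFB4 ran the other way, with 1907 and 1723 in H1299 and 414 and 624 in A549 (log2 mean 1.78, SE 0.19; limma adjusted p = 0.00204). HK2, PFKFB3 and PFKFB4 had no overlap between the lines, nor had other members such as PDK1, ANKRD37, DDIT4 and HIF1A. GAPDH, ALDOA and TPI1 had none either, although they did not pass, so a lack of overlap sets no gene apart here. The share of all genes without overlap was not counted, and 52.4% of all genes were called between the lines. With probe sets averaged, PFKFB4 was still higher in H1299, by 1.02 on the log2 scale. Among the phosphofructokinase subunits, PFKP was higher in A549 (log2 mean −0.93; limma adjusted p = 0.00499), PFKM higher in H1299 (0.51; limma adjusted p = 0.0369), and PFKL stood at 0.11 (limma adjusted p = 0.455).

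The promoter windows of the isozymes that separated the lines are shown with the same capitals. PFKFB4 has 1 window, at chr3:48556754-48557053 on the minus strand. PFKFB3 has 2, at chr10:6144671-6144970 and chr10:6202682-6202981, and HK2 has 2, at chr2:74833877-74834176 and chr2:74834920-74835219, all on the plus strand.
PFKFB4: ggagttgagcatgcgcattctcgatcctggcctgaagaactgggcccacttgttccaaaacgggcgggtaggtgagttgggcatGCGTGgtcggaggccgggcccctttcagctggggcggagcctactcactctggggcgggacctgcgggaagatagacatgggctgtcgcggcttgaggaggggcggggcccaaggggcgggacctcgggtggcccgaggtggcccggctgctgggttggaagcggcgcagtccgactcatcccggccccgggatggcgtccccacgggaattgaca
PFKFB3 window 1: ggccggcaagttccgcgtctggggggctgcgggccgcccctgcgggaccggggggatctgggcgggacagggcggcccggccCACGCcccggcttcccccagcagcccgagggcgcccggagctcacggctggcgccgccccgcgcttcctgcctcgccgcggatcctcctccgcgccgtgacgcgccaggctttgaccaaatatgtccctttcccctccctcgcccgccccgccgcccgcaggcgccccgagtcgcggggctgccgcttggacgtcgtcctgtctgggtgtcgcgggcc
PFKFB3 window 2: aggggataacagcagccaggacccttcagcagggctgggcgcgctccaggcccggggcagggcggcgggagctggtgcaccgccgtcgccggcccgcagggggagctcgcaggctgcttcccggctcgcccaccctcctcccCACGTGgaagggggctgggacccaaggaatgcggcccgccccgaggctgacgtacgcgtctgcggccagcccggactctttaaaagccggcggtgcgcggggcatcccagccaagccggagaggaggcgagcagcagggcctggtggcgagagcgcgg
HK2 window 1: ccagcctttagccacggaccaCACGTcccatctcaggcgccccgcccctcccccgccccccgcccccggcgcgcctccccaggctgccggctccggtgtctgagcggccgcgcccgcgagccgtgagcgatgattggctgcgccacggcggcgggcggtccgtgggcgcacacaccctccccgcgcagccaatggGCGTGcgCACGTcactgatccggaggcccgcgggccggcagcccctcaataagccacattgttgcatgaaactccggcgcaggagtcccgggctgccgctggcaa
HK2 window 2: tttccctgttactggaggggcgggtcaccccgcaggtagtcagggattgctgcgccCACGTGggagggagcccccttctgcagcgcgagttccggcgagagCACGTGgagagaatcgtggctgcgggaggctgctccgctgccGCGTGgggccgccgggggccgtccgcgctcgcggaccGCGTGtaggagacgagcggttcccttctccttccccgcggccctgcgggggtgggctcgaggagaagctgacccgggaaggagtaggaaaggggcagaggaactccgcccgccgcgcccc
PFKFB4 held 1 match and the PFKFB3 windows 1 and 2. The HK2 windows held 3 and 6. LDHA, which did not pass between the lines, held 7 matches in 2 windows. How many windows of all genes hold as many was not counted. The palindrome CACGTG counts as 2 overlapping matches, one on each strand, and stood once in the second PFKFB3 window and at 2 places in the second HK2 window. CACGTG stood in 8 of the members' 61 windows (13.1%), against 9.26% of the windows of genes past the signal minimum and 7.26% of all windows.

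The bulk enzymes of the lower pathway did not pass between the lines. GAPDH, ALDOA, TPI1, PGK1, ENO1, ENO2, PGAM1, PKM and LDHA had log2 means from −0.34 to 0.34 for H1299 over A549. GPI and ALDOC were higher in A549 (log2 means −0.78 and −0.45; limma adjusted p = 0.00850 and 0.0213).

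NDRG1 and EGLN3 passed the signal minimum through A549 alone, since their H1299 signals averaged below it. They had to differ between the lines, so their values are given as a description. Both are nevertheless counted among the 13 called, the 9 called other hypoxia genes and the 5 members 2-fold higher in A549. NDRG1 had 37.9 and 82.5 in H1299, against 612 and 1735 in A549. EGLN3 had 47.7 and 47.0 in H1299, against 486 and 822 in A549. The mTORC1 inhibitor gene DDIT4 had 1017 and 1274 in H1299, against 3476 and 3823 in A549 (log2 mean −1.65; limma adjusted p = 0.000564). HIF1A had 4388 and 4883 in H1299, against 10252 and 11887 in A549 (log2 mean −1.25, SE 0.11; limma adjusted p = 0.00105). SLC2A1, SLC2A3, EGLN1, P4HA2 and VEGFA were also higher in A549, with log2 means from −0.78 to −0.48. With probe sets averaged, VEGFA stood at −0.39, and EGLN1 at −0.31 did not pass (limma adjusted p = 0.0617, the highest of 10 alternatives; the lowest was 0.00492).

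Higher in H1299 were PDK1, BNIP3, ANKRD37 and KDM3A. PDK1 had 1319 and 1532 in H1299, against 212 and 417 in A549 (log2 mean 2.14, SE 0.19; limma adjusted p = 0.00111). ANKRD37 had 1132 and 1053 in H1299, against 289.6 and 314 in A549 (log2 mean 1.76, SE 0.12; limma adjusted p = 0.000509). The other hypoxia genes thus did not share a direction between the lines. BNIP3 had 6458 and 6895 in H1299 and 3159.5 and 5619 in A549. Its difference was 1.02 with hMOF siRNA and 0.29 with scramble, and the mean of 0.66 was just called (limma adjusted p = 0.0447, and 0.0566 with no signal filter, the highest of 10 alternatives, with 0.02005 the lowest). ADM differed by −0.13 with hMOF siRNA and −1.41 with scramble and did not pass (limma adjusted p = 0.0991). The siRNA ratios and these line ratios share arrays, so a gene whose siRNA ratio differs between the lines also has unequal line ratios.

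**Figure D5:**
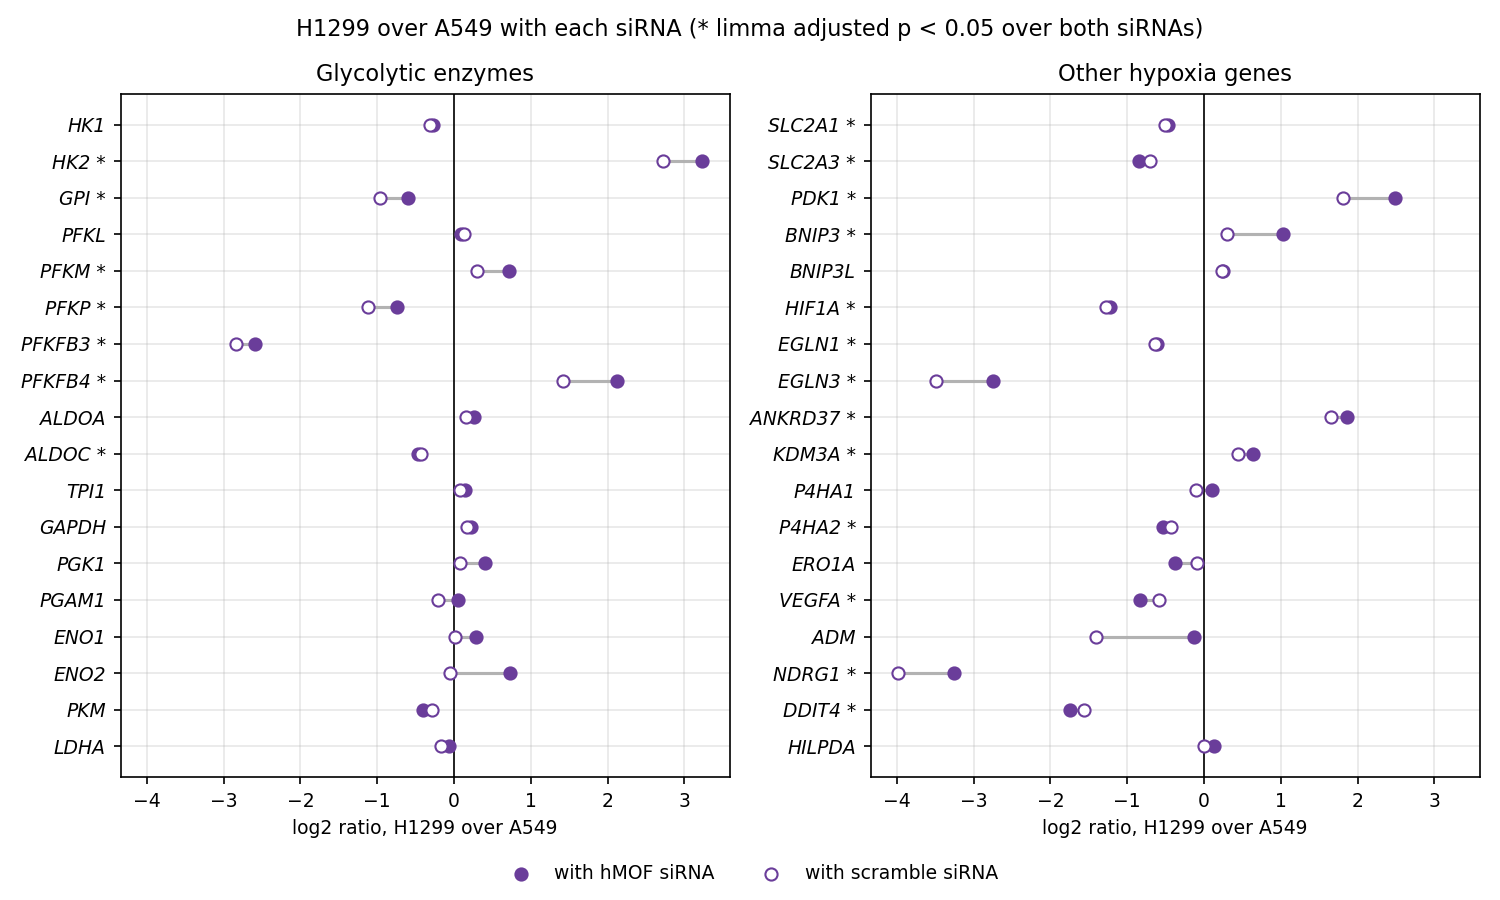
log2 ratio of H1299 to A549 (x) for each member (rows) with hMOF siRNA (filled) and with scramble siRNA (open), with an asterisk where limma's adjusted p over both siRNAs was under 0.05. HK2, PFKFB4, PDK1 and ANKRD37 lie far right of 0, and PFKFB3, EGLN3, NDRG1 and DDIT4 far left, with both siRNAs. EGLN3 and NDRG1 passed the signal minimum through A549 alone.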

How the data were processed

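Total RNA (6 ug per sample, per the labels) of 4 samples was measured on Affymetrix arrays with 54675 probe sets. The deposited values are linear signal intensities, and the submitters' processing notes name MAS5. For its version and scaling target, nothing is given in the sources used here. Array medians lay between 73.3 and 75.4, and the number of arrays limits the precision. Probe sets were named through the platform annotation, where 41091 that were not controls had a single gene. Identifiers were matched to RefSeq GRCh38.p14, with 54 unmatched.

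The offset was the 20th percentile of all signals, and the minimum the 50th percentile of probe set means. limma 3.58.1 in R 4.3.3 was fitted to 12825 genes with terms for line and siRNA (1 residual and 3.74 prior degrees of freedom), with Benjamini-Hochberg adjusted p values held to 0.05, and was checked on simulated data. Figures used matplotlib 3.10.9. Sharing a cell line pairs the arrays. The log2 values of a line's 2 arrays correlated at 0.988 in A549 and 0.983 in H1299. Members, lists and tests were chosen with earlier results of these data known. All members are named, and of the other lists those past the test or 2-fold in both lines. GYS1, MPC1, CITED2, VHL and the genes that the closing section adds were named after their values were seen. The alternatives changed the offset, filter, scaling or probe set rule, added a trend in eBayes, dropped the line or siRNA term, or left out each line or siRNA. One more, a loess on signal, was chosen after seeing the data.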

Additional observations from a re-analysis of the deposited data

Results flagged for a closer look

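For 8 members the siRNA ratio lay below 0 in A549 and above 0 in H1299, each from 1 pair of arrays, and the difference between the lines was not tested. As H1299 minus A549 on the log2 scale, it was 1.28 for ADM, 0.74 for EGLN3, 0.70 for PFKFB4 and 0.37 for PFKP. It was 0.28 for ENO1, 0.26 for PGAM1, 0.21 for P4HA1 and 0.21 for ANKRD37. These values are of the brightest probe sets. The second PFKFB4 probe set past the minimum stood at 0.01 in A549 and 0.16 in H1299, with no reversal. Of the other ENO1 probe sets past the minimum, 1 stood at 0.04 and 0.16, and 1 at −0.01 and 0.05. The second EGLN3 probe set kept the pattern, at −0.84 and 0.01.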

How the results depend on the processing

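Members lower with hMOF siRNA numbered 2, with NDRG1 beside PKM, at an offset of 0, a filter at the 70th percentile, quantile normalization and the added loess on signal. With probe sets averaged, the member called lower was NDRG1 and not PKM. Members higher numbered 0 without _x_at probe sets. Over all genes, 297 were higher after quantile normalization, and 476 were lower and 339 higher after loess. With no replicate block, where the fit leaves out the line or siRNA, limma called 0 genes lower with hMOF siRNA, 0 higher and 0 members either way (219 lower, 131 higher and 2 members at an unadjusted p under 0.05). Between the lines 2013 genes were higher in H1299 and 2283 in A549, with 4 members higher in H1299. The siRNA direction reversed for ANKRD37 after quantile normalization (0.0539), centring (0.0606) and loess (0.0374), and for TPI1 after centring (0.00507) and with probe sets averaged (0.0462). The line direction reversed for P4HA1 after quantile normalization (0.0513) and centring (0.0760), PGAM1 after centring (0.000339) and ERO1A with probe sets averaged (0.174). None of these had been called. Of the other values for single genes, 19 lost a call, 10 gained one and 946 were counted as unchanged. The 946 include the ratios left when a line or siRNA was dropped, which have no call. For genes that had not been called, those ratios counted as unchanged even where their direction differed, as for ADM in H1299. Leaving out a line or a siRNA gives the ratios of the other, with no test. The cause of these shifts was not tested.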

Other observations

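Other genes of oxygen sensing and fuel choice separated the lines more widely than the members, and these were picked for that difference after their values were seen. EPAS1, which encodes HIF-2 alpha, had 170.0 and 197 in H1299 (hMOF siRNA, then scramble), against 6260.0 and 5244 in A549 (log2 mean −4.76; limma adjusted p = 7.17e-05). CA12, a membrane carbonic anhydrase, had 28.7 and 27.7 in H1299, against 7132 and 8353 in A549. PDK4, a starvation-induced pyruvate dehydrogenase kinase, had 37.6 and 41.9 in H1299, against 3333 and 4575 in A549, the direction opposite to PDK1. HKDC1, a hexokinase domain gene, had 10.3 and 15.0 in H1299, against 1206 and 1309 in A549, the direction opposite to HK2. CA12, PDK4 and HKDC1 passed the signal minimum of 78.2 through A549 alone, so they had to differ between the lines. Their values are a description.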
